A study of Homo sapiens with 4 samples.

Results

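Plasminogen is turned into the protease plasmin at the cell surface by the urokinase-type and tissue-type plasminogen activators, and serpins, suicide inhibitors that trap serine proteases, hold this step in check. Urokinase works while bound to a receptor anchored in the membrane, which keeps plasmin formation close to the cell. In squamous carcinoma the system is studied for its part in matrix breakdown, cell detachment and invasion.

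The genes described here are 8 named genes of this system: the activators PLAU and PLAT, the receptors PLAUR and PLGRKT, and the serpins SERPINE2, SERPINB2, SERPINB8 and SERPINB5. They were chosen by name for their place in the system, with earlier results of these data known. Of them, 8 of 8 were measured, among 23485 genes tested on the array, a total that also counts identifiers without a gene symbol. The study set cells depleted of AEG-1 (gene symbol MTDH, also called LYRIC) against control cells, to ask which transcripts differ after the knockdown. Both came from SAS, an established tongue squamous carcinoma line, and were grown in DMEM with 10% fetal bovine serum, antibiotics and puromycin. SB cells carried a lentiviral pLKO.1 construct with LYRIC shRNA-B. The control in SCt cells is labelled as pLKO.1 vector, whereas the study's methods describe a scrambled shRNA. Puromycin at 2 μg/ml was applied to SB and SCt cells during 14 days to obtain stable clones. The comparison thus rests on 1 hairpin and on selected cells.

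RNA of SB cells, in red, and RNA of SCt cells, in green, were hybridized together on each of 4 Agilent dual-channel arrays. The labels call the arrays biological replicates. The study's methods state independent biological replicates for comparisons in vitro, although in a number other than 4. Whether these 4 arrays came from separate cultures could not be established. The p-values measure the spread between the arrays, which may be technical. Levels of some probes moved between arrays in both channels, as for SERPINE2, with normalized intensities of 409 to 1278 in SB and 383 to 1167 in SCt cells. The source of such shifts was not tested. Every array had the same dye orientation, and all 4 lay on 1 slide read in 1 scan, so that a dye preference of a probe and an effect of the knockdown cannot be told apart. Median spot intensity per array was 655 to 875 in the channel of SB cells and 362 to 588.5 in that of SCt cells. The values below are log2 ratios of SB over SCt cells after background correction and loess normalization, negative where the transcript was lower in SB cells. Precision is limited by there being 4 arrays and by their agreement. Between pairs of arrays, the correlation of the log2 ratios was 0.05 to 0.46 over 28507 probes.

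The target of the hairpin was examined first. MTDH, read by probe A_33_P3234168, gave log2 ratios of −3.18, −3.01, −3.12 and −3.41 on arrays 1 to 4. All 4 arrays were far below 0, with a mean of −3.18 ± 0.17 (SD, n = 4 arrays) and an adjusted p of 5.22e-10 from limma. The 9 markers of squamous epithelium that were examined, KRT5 and TP63 among them, had signal well above background in SB and SCt cells on each of the 4 arrays. Of 18 markers of fibroblasts, endothelium and leukocytes, 13 also had such signal throughout, whereas the fibroblast markers COL3A1 and LUM were so on none. Of the 22 markers tested, 0 passed an adjusted p of 0.05 in limma, and 0 passed by the methods' t-test after adjustment. An unadjusted limma p under 0.05 was found for 5 of the 9 squamous markers and for 0 of the markers of other cell types, where 18.1% of all genes tested had one. Of these, KRT6A, DSG3, SFN and EPCAM read −0.28, −0.18, −0.15 and −0.14, and KRT14 read 0.14. The normalized intensity, as the geometric mean of the arrays summed over the 9 squamous markers, was 191034 in SB and 191031 in SCt cells. The part of these markers in the results below was not tested.

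Of the 8 genes, 2 passed an adjusted p of 0.05 in limma, SERPINB2 and SERPINB5, and both were lower in SB cells. Over the whole array 3.51% of genes passed, 2.26% as lower and 1.26% as higher in SB cells. The other 2 serpins, the activators and the receptors did not pass the test as processed here. PLAU did with median centring instead of loess, where 31.4% of all probes tested passed. The median log2 ratio of the 8 genes was −0.06, against 0.01 for all genes tested. The number of calls moved with single arrays: 1055 probes passed with all 4 arrays, and 638, 421, 204 and 1977 when array 1, 2, 3 or 4 was left out. By the methods' t-test, 0 of the 8 genes and 0 probes of the array passed after adjustment. Without adjustment SERPINB2 and SERPINB5 had a p of 0.00998 and 0.0104 in that test, the other 6 were above 0.05, and 13.7% of all genes tested were under it. An exact sign-flip permutation test over 4 arrays has 16 sign patterns and cannot reach a two-sided p of 0.05, since its smallest p is that of 2 patterns in 16. SERPINB2 and SERPINB5 were below 0 on all 4 arrays, as were 12.2% of all genes tested.

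**Figure D1:**
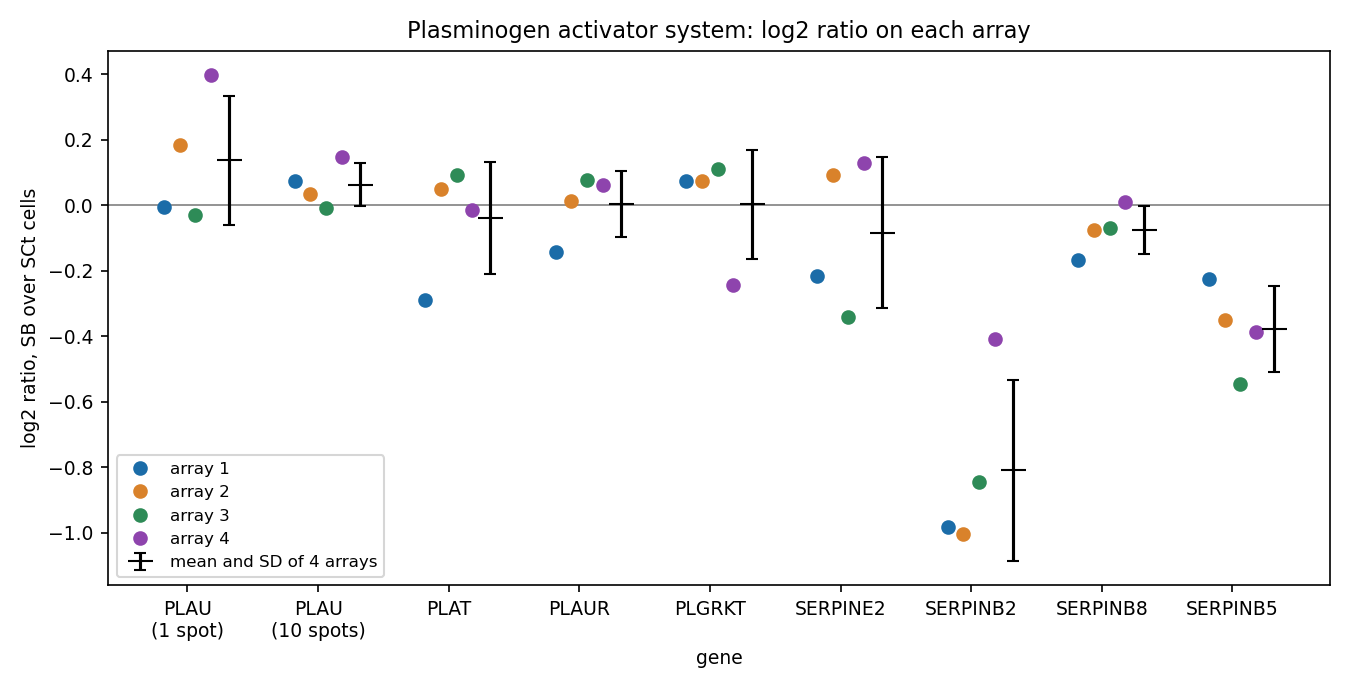
Log2 ratio of SB over SCt cells (vertical axis) for each probe of the 8 genes (horizontal axis), with 1 coloured point per array and the mean with its SD in black. SERPINB2 and SERPINB5 lie below 0 on all 4 arrays, and the other probes lie on both sides of 0.

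PLAU encodes urokinase, the activator that works on the cell surface, and 2 probes read it. The brighter probe, A_33_P3306146, gave log2 ratios of −0.004, 0.18, −0.03 and 0.40 on arrays 1 to 4. Arrays 2 and 4 were above 0 and the other 2 lay close to it, so that the mean of 0.14 ± 0.20 (SD, n = 4 arrays) was smaller than the spread. Its adjusted p was 0.345 in limma, with a 95% interval of −0.02 to 0.30. The second probe, A_23_P24104, is printed as 10 spots on each array and read 0.07, 0.04, −0.01 and 0.15. It was highest on array 4, like the first probe, and its mean was 0.06 ± 0.07 (SD, n = 4 arrays) with an adjusted p of 0.599 in limma. The SD between the spots of 1 array was 0.03 to 0.05 for this probe. When the arrays were centred on their median and no loess was used, PLAU read 0.27 with an adjusted p of 0.0195 in limma. In that fit 31.4% of all probes tested passed, against 3.70% as processed here, so that the call of PLAU depended on the normalization.

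PLAT encodes tissue-type plasminogen activator, the secreted enzyme best known for dissolving fibrin, and its probe A_23_P82868 is also printed as 10 spots. The arrays gave −0.29, 0.05, 0.09 and −0.01. Array 1 was low and the other 3 were near 0. The SD between arrays was 0.17, and the SD between the spots of 1 array, which covers the spotting alone, was 0.04 to 0.07. The mean was −0.04 with a 95% interval of −0.19 to 0.11 and an adjusted p of 0.814 in limma, and without array 1 it was 0.04. The normalized intensity of PLAT was 168, 336, 261 and 153 in SB cells and 205, 324, 245 and 154 in SCt cells on arrays 1 to 4. Both channels were highest on array 2 and lowest on array 4.

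PLAUR encodes the urokinase receptor, a glycolipid-anchored protein that gathers urokinase at the cell surface. Its probe A_23_P16469 read −0.14, 0.01, 0.08 and 0.06. Array 1 was below 0 and the other 3 were slightly above it. The mean was 0.003 ± 0.10 (SD, n = 4 arrays), with a 95% interval of −0.13 to 0.13 and an adjusted p of 0.986 in limma. That interval leaves room for a change of up to 1.1-fold in either direction. PLGRKT encodes a transmembrane receptor that binds plasminogen itself. Its probe A_23_P255869 gave 0.07, 0.07, 0.11 and −0.24. The first 3 arrays agreed closely and array 4 lay far below them, so that the mean of 0.004 ± 0.17 (SD, n = 4 arrays) had an adjusted p of 0.984 in limma. Without array 4 the mean was 0.09, and it turned slightly negative, to −0.04, with median centring.

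SERPINE2 encodes protease nexin-1, a secreted serpin that inhibits thrombin, urokinase and plasmin. Its probe A_23_P50919 gave −0.22, 0.09, −0.34 and 0.13. Arrays 1 and 3 were below 0, arrays 2 and 4 were above it, and the mean of −0.08 ± 0.23 (SD, n = 4 arrays) did not pass the test (adjusted p of 0.625 in limma). Without array 3 it was 0.002. The normalized intensity of SERPINE2 varied more between arrays than between the channels of an array, from 409 to 1278 in SB cells and from 383 to 1167 in SCt cells.

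SERPINB2 encodes plasminogen activator inhibitor 2, a clade B serpin that stays largely inside the cell and inhibits urokinase. Its probe A_24_P245379 had normalized intensities of 162, 222, 265 and 493 in SB cells on arrays 1 to 4. In SCt cells on the same arrays they were 320, 444.5, 476 and 653. The SB channel was lower on each array. The ranges of the 2 channels overlap across arrays, since this probe read highest on array 4 and lowest on array 1 in both. The log2 ratios were −0.98, −1.003, −0.84 and −0.41. Arrays 1 to 3 were close to one another, and array 4 showed a smaller difference. The mean was −0.81 ± 0.28 (SD, n = 4 arrays), or 1.75-fold lower in SB cells. Its standard error in limma was 0.09 and its adjusted p 0.000517. Of the 23485 genes tested, 15 had a lower mean log2 ratio. The SD of 0.28 was the largest of the 8 genes and exceeded the median SD of 0.11 over all genes. The scanner software's own ratio, which is not shrunk by the offset of the background correction, gave −1.05.

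SERPINB2 was lower than each of the other 7 genes on every array when the log2 ratios of an array were subtracted from one another. Against PLAU, the enzyme it inhibits, the difference of log2 ratios was −0.98, −1.19, −0.82 and −0.81. Against PLAUR it was −0.84, −1.02, −0.92 and −0.47. These differences were not tested. The smallest was that to SERPINB5, −0.02 on array 4, where the log2 ratios of the 2 genes were nearly equal.

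**Figure D2:**
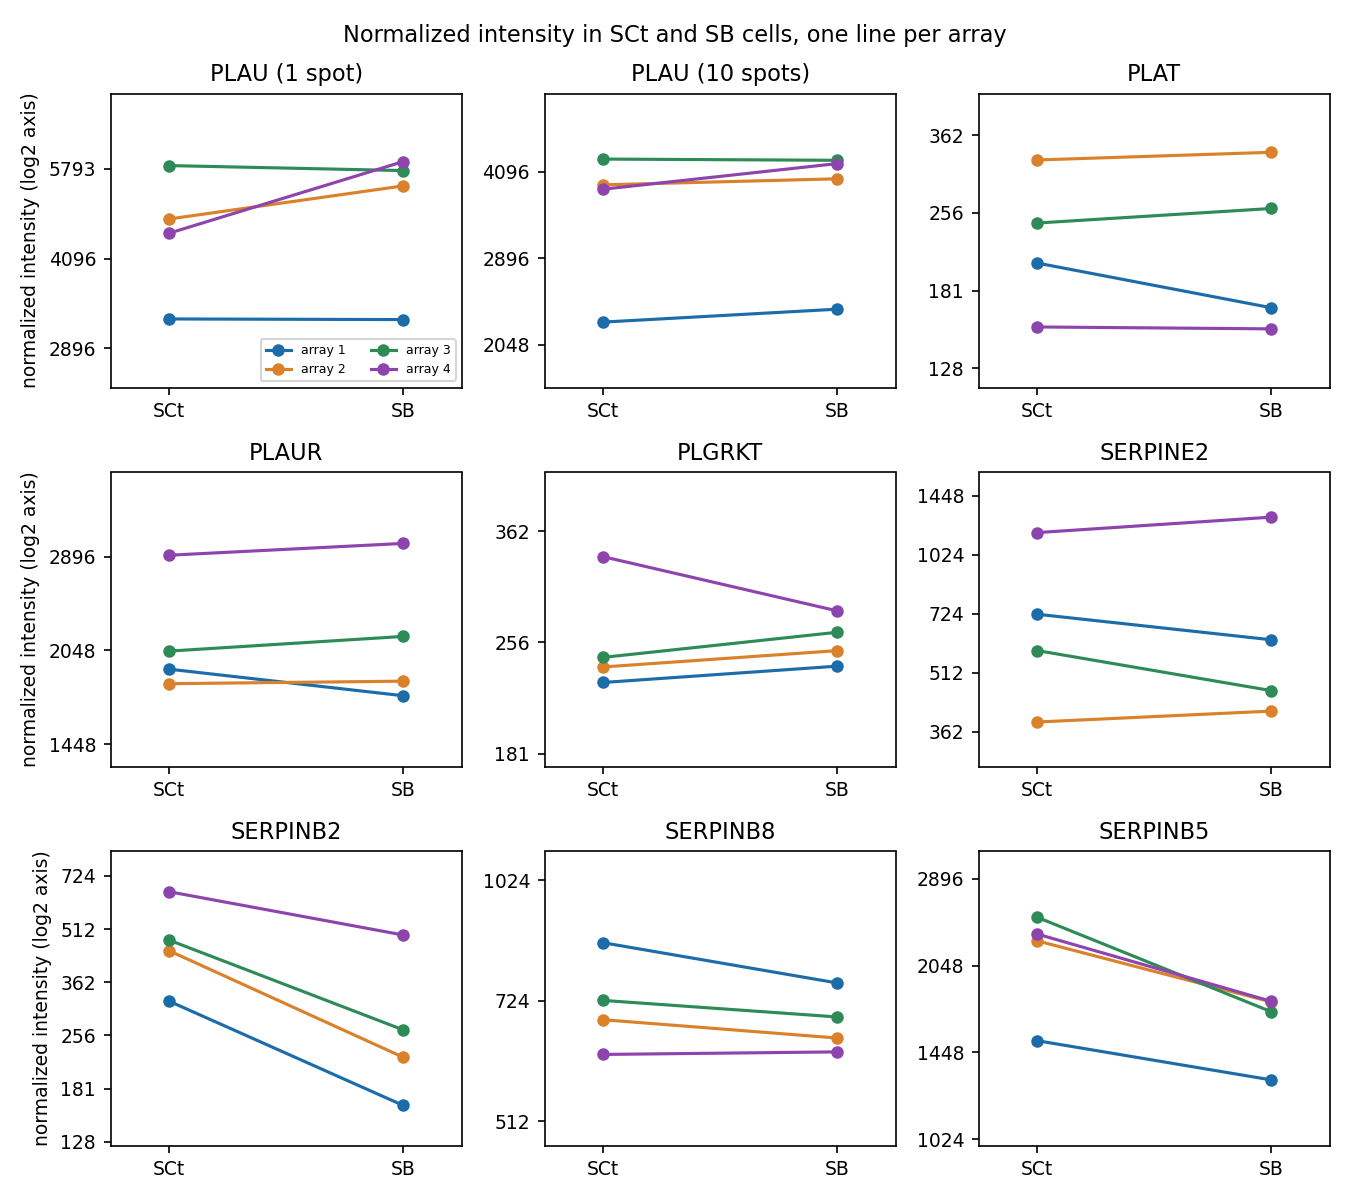
Normalized intensity on a log2 axis (vertical) in SCt and SB cells (horizontal) for each probe of the 8 genes, with 1 line per array. The SERPINB2 and SERPINB5 lines slope down on all 4 arrays, and for most other genes the arrays lie further apart than the ends of a line.

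SERPINB5 encodes maspin, an epithelial clade B serpin that does not act as a typical protease inhibitor and was first described as a suppressor of tumour growth. Its probe A_33_P3310104 had normalized intensities of 1298, 1772, 1704 and 1776 in SB cells on arrays 1 to 4. In SCt cells they were 1518, 2261, 2484 and 2323. The SB channel was lower on each array, and the probe read lowest on array 1 in both channels. The log2 ratios were −0.23, −0.35, −0.54 and −0.39. The difference was largest on array 3 and smallest on array 1, whereas for SERPINB2 array 1 was among those with the largest. The mean was −0.38 ± 0.13 (SD, n = 4 arrays), or 1.3-fold lower in SB cells, and the limma fit gave an adjusted p of 0.00741. Without array 3 the mean was −0.32 and the adjusted p 0.0790, so that the call was lost, while the calls over the whole array went from 1055 to 204 probes. Of all genes tested, 170 had a lower mean log2 ratio.

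SERPINB8 encodes an intracellular clade B serpin that inhibits furin and trypsin-like proteases. Its probe A_24_P147461 gave −0.17, −0.08, −0.07 and 0.01. The first 3 arrays were below 0 and array 4 was at it. The mean of −0.08 ± 0.07 (SD, n = 4 arrays) did not pass the test, with an adjusted p of 0.519 in limma and a 95% interval of −0.20 to 0.05.

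SERPINB2, SERPINB5 and SERPINB8 belong to a row of clade B serpin genes on chromosome 18. In RefSeq (GRCh38.p14) the order is SERPINB5, SERPINB12, SERPINB13, SERPINB4, SERPINB3, SERPINB11, SERPINB7, SERPINB2, SERPINB10 and SERPINB8. SERPINB5 stands at one end and SERPINB2 is the eighth, with SERPINB7 before it. SERPINB7, its neighbour, read 0.10 ± 0.14 (SD, n = 4 arrays). SERPINB13, SERPINB4, SERPINB3 and SERPINB11, which lie between the 2 called genes, read 0.08, −0.04, 0.004 and 0.03. None of these 5 passed the test, and their difference from SERPINB2 or SERPINB5 was not tested. HMSD, a serpin-domain gene that RefSeq places between SERPINB10 and SERPINB8, read −0.34 with an adjusted p of 0.00617 in limma, and lost that call without array 3 (adjusted p of 0.0553). SERPINB12 and SERPINB10 were too dim to be tested. SERPINB10 was not well above background in either channel on any array.

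**Figure D3:**
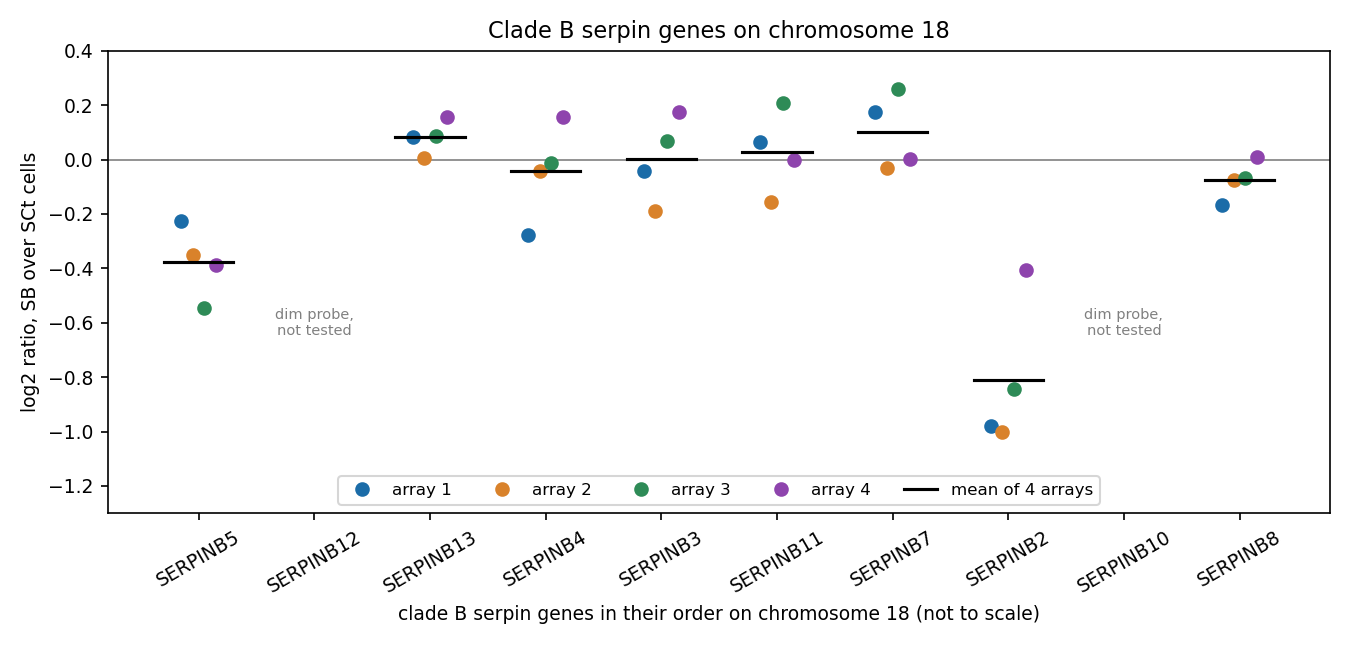
Log2 ratio of SB over SCt cells (vertical axis) for the clade B serpin genes in their order on chromosome 18 (horizontal axis, not to scale), with 1 point per array and the mean as a bar. SERPINB5 and SERPINB2 lie at −0.38 and −0.81, and the 5 tested genes between them lie from −0.04 to 0.10.

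The upstream sequences of SERPINB2 and SERPINB5 are shown because these genes were lower together. RefSeq promoters matched 7 of the 8 genes. Each sequence is the 250 bases before the start of the gene, 5′ to 3′ on the plus strand of GRCh38.p14. Capitals mark matches, on either strand, to the motifs searched. The AP-1-like motif was spelled TGANTCA and the TATA box TATAAA. The GC box was spelled GGGCGG and the E-box CANNTG. The last motif was the CCAAT box, spelled by its name.
SERPINB2, chr18:63887455-63887704: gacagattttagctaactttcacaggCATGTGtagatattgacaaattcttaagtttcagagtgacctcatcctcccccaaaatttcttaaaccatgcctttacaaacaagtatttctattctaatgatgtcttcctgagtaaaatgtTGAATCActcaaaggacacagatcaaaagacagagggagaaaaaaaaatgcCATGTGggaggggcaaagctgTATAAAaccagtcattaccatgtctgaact
SERPINB5, chr18:63476708-63476957: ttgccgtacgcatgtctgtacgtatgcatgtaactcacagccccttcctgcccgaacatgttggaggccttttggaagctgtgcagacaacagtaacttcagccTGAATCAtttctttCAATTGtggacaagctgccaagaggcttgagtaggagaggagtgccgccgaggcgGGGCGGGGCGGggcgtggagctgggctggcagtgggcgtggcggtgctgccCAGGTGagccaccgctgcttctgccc

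Both windows hold 1 AP-1-like match with the same letters, TGAATCA, 102 bases before the start in SERPINB2 and 146 in SERPINB5 at its first base. Of 35116 RefSeq promoter windows of 250 bases, 6.57% hold such a match. SERPINB2 also has 1 TATA box match, 30 bases before the start, where 10.7% of windows have one. SERPINB5 has none and instead 2 GC box matches that overlap by 1 base, a motif found in 42.6% of windows. Each has 2 E-box matches, a motif in 61.8% of windows, and neither has a CCAAT box, found in 32.01%. Of the other genes, SERPINB8 has 2 AP-1-like and 2 TATA box matches and PLAUR has 1 AP-1-like match, although neither passed the test. The SERPINB2 window is 37.2% G and C, that of SERPINB5 60.0%, and the median window 58.0%. A match describes the letters only.

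The genes whose 4 log2 ratios lay nearest to those of SERPINB2, by the root mean square difference over 4 arrays, were CCDC71L, SLC4A7 and SCEL. CCDC71L read −1.05, −0.91, −0.89 and −0.44 on arrays 1 to 4, at a distance of 0.07. Its smaller difference on array 4 comes with the way it was picked and is no separate result. SLC4A7, a sodium bicarbonate cotransporter, lay at a distance of 0.13, and SCEL, which encodes sciellin of the cornified envelope, at 0.15. For SERPINB5 the nearest were CLNS1A, PPP1R12A and ALG6, at distances of 0.01, 0.03 and 0.03. CLNS1A read −0.25, −0.36, −0.54 and −0.40, with array 3 the lowest, which likewise comes with the way it was picked.

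The rest of the system was followed through 65 related genes that passed the filters on dim probes and outlier spots, of 76 with a named probe. SERPINA9 was well above background, but its spot was marked as an outlier on all 4 arrays. In limma 0 of the 65 passed an adjusted p of 0.05, and 0 passed by the methods' t-test after adjustment. An unadjusted limma p under 0.05 was found for 13 of them, near the share of 18.1% over all genes tested. Their median log2 ratio was 0.02. Plasminogen itself (PLG) read −0.10, 0.22, 0.30 and 0.15. Its probe was dim, with a mean normalized intensity of 107 in SB and 97 in SCt cells. For probes this weak the offset of the background correction makes fold changes smaller. The 7 genes for plasmin, its other activators and cofactors lay between −0.14 and 0.15.

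Of the receptors and partners that hold or clear urokinase and its receptor, 14 were tested, with a median of 0.04 and a range of −0.28 to 0.23. The lowest was ITGA3, the α3 integrin that binds the urokinase receptor, at −0.68, −0.07, −0.44 and 0.08. The 4 plasminogen-binding surface proteins other than PLGRKT had a median of −0.02. The 8 other clade B serpins tested had a median of 0.02, the 10 other serpins 0.01, and the 17 other trypsin-like proteases and their regulators 0.05. The lowest of the other serpins was SERPINA1, alpha-1 antitrypsin, at −0.24 with an adjusted p of 0.0634 in limma. SERPINA1 passed with trend and robust options (adjusted p of 0.0455) and without array 4 (0.0272), and over all alternatives its adjusted p was 0.0272 to 0.336. ITGA3 passed without array 4, at −0.39 with an adjusted p of 0.00125 in limma, and over all alternatives it lay between −0.39 and 0.001 with an adjusted p of 0.00125 to 0.991. ITGA3 and SERPINA1 were named after their values were seen.

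**Figure D4:**
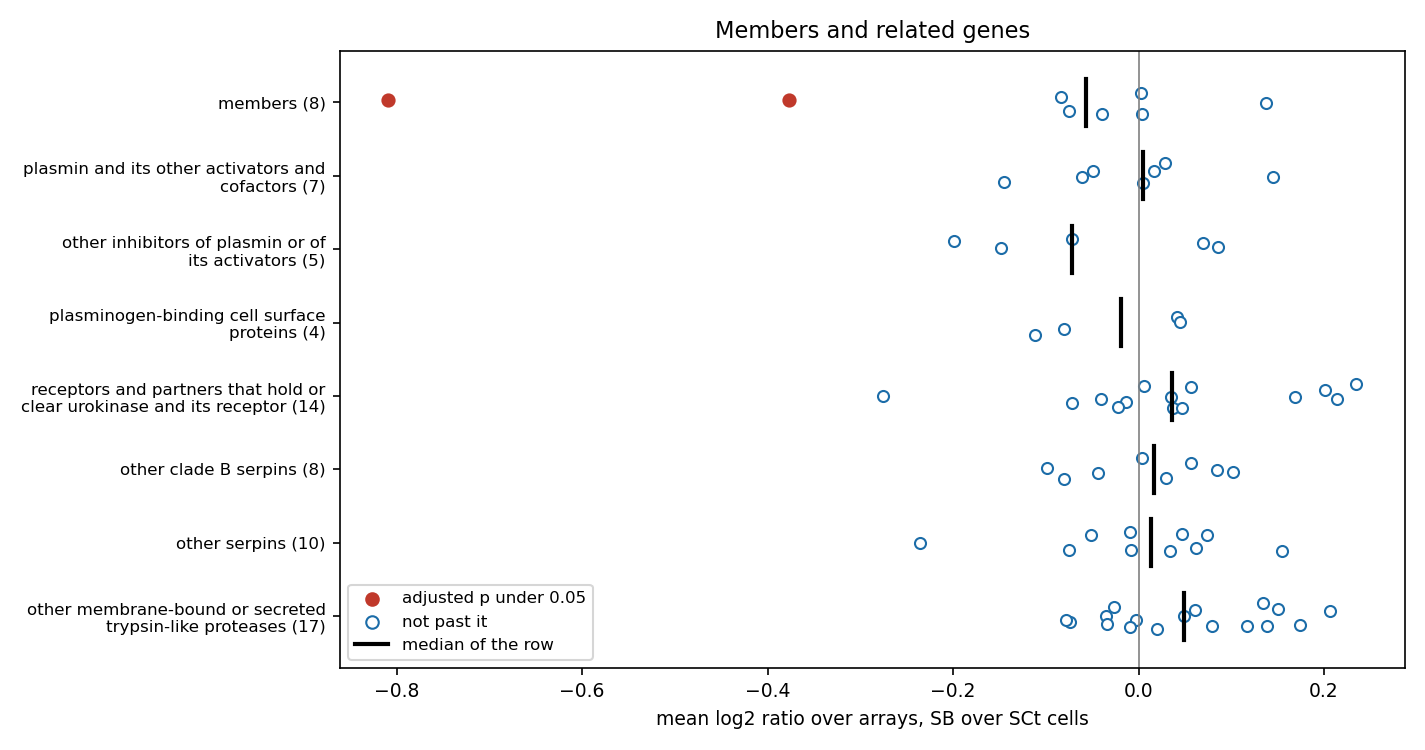
Mean log2 ratio of SB over SCt cells (horizontal axis) for the 8 genes and for 7 groups of related genes (vertical axis, number of genes tested in brackets), with 1 point per gene and the median as a bar. The 2 filled points, SERPINB2 at −0.81 and SERPINB5 at −0.38, lie below all other points.

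**Figure D5:**
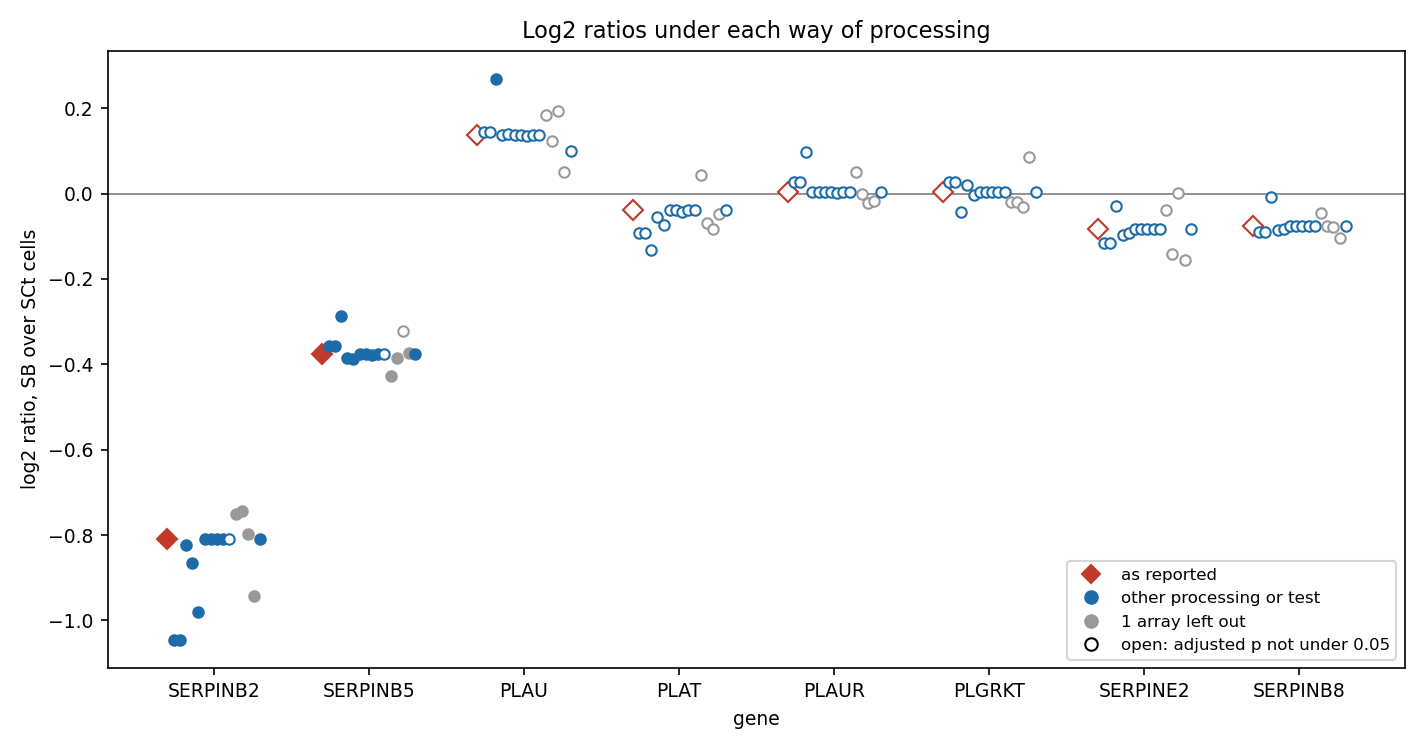
Log2 ratio of SB over SCt cells (vertical axis) for the 8 genes (horizontal axis) as reported, under each other processing or test, and with 1 array left out, with open symbols where the adjusted p was not under 0.05. SERPINB2 stays between −1.05 and −0.74, SERPINB5 between −0.43 and −0.29, and the others between −0.15 and 0.27. PLAU is highest under median centring, where it passed, as did 31.4% of all probes tested.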

How the data were processed

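For each array, the authors deposited the output of Feature Extraction 10.5.1.1, which gives the median intensity of a spot in red and in green beside a local background intensity, with no normalization. The authors' files also hold the software's ratio on a log10 scale, after its own background subtraction and dye normalization. A series table deposited by the authors is on a log2 scale, SB over SCt. Its values were within 0.001 of the log2 ratio of processed red to processed green signal for 97.6% to 97.9% of probes on each array, and its column medians were −0.02, 0.02, 0.01 and 0.01.

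Here limma 3.58.1 in R 4.3.3 was used. Normexp with an offset of 50, which makes fold changes of weak spots smaller, corrected the background. Control spots (1377 of 44495) had weight 0 in loess and were then removed, and 814 to 1168 outlier spots per array were left out. Spots of a probe were averaged. A probe was kept if 1 of its channels was well above background on each of the 4 arrays (where it had several spots, in at least 0.5 of them) and if at least 2 arrays gave a value, which left 28507 of 34127 probes. lmFit and eBayes tested the mean log2 ratio against 0, with Benjamini-Hochberg adjustment over these probes. Normalized intensities are those of each channel after loess and Aquantile. A gene is represented by its brightest kept probe. Probes were named by accession through RefSeq (GRCh38.p14): 24826 matched, and 9301 kept their identifier. Where such a probe was kept, its identifier counts as a gene in the totals, ranks and shares over all genes tested. The array was designed on an earlier build. The steps were tested on simulated arrays.

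The members and gene lists were chosen with earlier results of these data known. By rule, the text names all members with every probe, MTDH, related genes past the threshold with 1 sign on all arrays, and for each called member the 3 genes with the nearest log2 ratios. PLG, ITGA3, SERPINA1, FPR3, ITGB3, EGFR, HMSD, squamous markers and the clade B genes were named besides, with their values seen. The alternatives concerned the ratio (the software's, or the series table), the normalization (median centring), the background (none, or an offset of 0), dim probes (no filter, or both channels required), outlier spots (retained), the test (trend and robust options, or the methods' t-test), the arrays (each omitted in turn) and the probes of a gene (their mean).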

Additional observations from a re-analysis of the deposited data

Results flagged for a closer look

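PLGRKT on array 4 lay apart from the other arrays: its log2 ratio was −0.24 there, while arrays 1 to 3 lay between 0.07 and 0.11. The gap to the nearest array was 0.89 of the whole range. It was the only one of 17 probes looked at in this way that passed the limit, and chance alone marks about 1 group in 20.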

How the results depend on the processing

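SERPINB2, SERPINB5 and MTDH kept their negative sign under each alternative tried, of which the mean over a gene's probes was not run for MTDH. The filters on dim probes, the trend and robust options and the methods' t-test use the same ratios and could not change it. Nor could the mean over probes for SERPINB2 and SERPINB5, each read by 1 probe. The software's ratio and the series table gave the same value, −1.05 for SERPINB2. Outside the array omissions, SERPINB2 ranged from −1.05 to −0.81, SERPINB5 from −0.39 to −0.29 and MTDH from −3.23 to −3.06. By the methods' t-test on the same values (−0.81, −0.38 and −3.18), the adjusted p-values were 0.261, 0.261 and 0.143, so that 0 members and 0 probes passed. Over the other alternatives run for each, array omissions aside, all 3 passed. Median centring gave the largest departure: 8939 probes passed, against 1055, and 37.4% of them were lower, against 64.4%. There PLAU passed at 0.27 with an adjusted p of 0.0195 in limma. Array omissions aside, its adjusted p over the alternatives was 0.0195 to 0.599, and with an array omitted it was 0.277 to 0.775. PLGRKT turned to −0.044 with median centring. Of the 65 related genes, 21 passed there, where 31.4% of all probes tested passed. With a normexp offset of 0, PLGRKT was −0.0027. Of the related genes, 1 passed with the series table (FPR3), 1 with no filter on dim probes (ITGB3), 1 with outlier spots kept (FPR3) and 1 with trend and robust options (SERPINA1), against 0; these were named after their values were seen. The cause of these changes was not tested. With each array omitted in turn, the ranges were 0.051 to 0.19 for PLAU, −0.084 to 0.043 for PLAT, −0.022 to 0.052 for PLAUR, −0.032 to 0.087 for PLGRKT, −0.15 to 0.0021 for SERPINE2, −0.10 to −0.045 for SERPINB8, −0.94 to −0.74 for SERPINB2 and −0.43 to −0.32 for SERPINB5. MTDH lay between −3.24 and −3.10. Between 1 and 2 members, 204 to 1977 probes and 0 to 2 related genes passed (EGFR without array 1, ITGA3 and SERPINA1 without array 4). SERPINB5, HMSD, and CLNS1A, PPP1R12A and ALG6, the genes nearest to SERPINB5, lost the call without array 3, with adjusted p-values of 0.0790, 0.0553, 0.0682, 0.0614 and 0.0790. CLNS1A also lost it with median centring, at −0.15. The test is itself paired, since each ratio sets SB against SCt cells within 1 array. Signal over background limits the dim probes of SERPINB10 and SERPINB12, which were not tested.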

Other observations

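Between SERPINB10 and SERPINB8 on chromosome 18, RefSeq places HMSD, a serpin-domain gene best known for a minor histocompatibility antigen. HMSD was noticed after its values were seen. Its probe A_33_P3322363 gave log2 ratios of −0.30, −0.33, −0.33 and −0.39 on arrays 1 to 4. All 4 arrays were below 0 and close together, with a mean of −0.34 ± 0.04 (SD, n = 4 arrays) and an adjusted p of 0.00617 in limma. Without array 3 the mean was −0.34 and the adjusted p 0.0553, with 204 probes called over the whole array against 1055. The scanner software's ratio gave −0.56. Over the alternatives other than array omissions the log2 ratio lay between −0.56 and −0.34, and only the methods' t-test did not pass, with an adjusted p of 0.157. SERPINB8, the next gene, read −0.08 and did not pass the test. Whether the difference between HMSD and SERPINB8 exceeds their error was not tested.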
